A study of Mus musculus with 9 samples.

Results

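Among the 55487 genes counted in RAW264.7 macrophages, 67 lay on opposite sides of a 4-fold gap between the 2 edited genotypes of the study, macrophages that lack C/EBPδ (knock-out) and macrophages whose C/EBPδ lacks its transactivation domain (ΔTAD). They were chosen by their levels in these same libraries. A gene was taken where its mean level as normalised read count (CPM, the share of a gene in all gene counts of its library, on the usual scale), with 0.1 added, differed 4-fold or more between these genotypes and the higher mean was 2 CPM or more. This gap was met by 81 genes. Of these, 5 were left out because both edited means were at most 0.25 of wild-type, 3 because both were at least 4 times wild-type, and 7 by name (Bdh1, Liph, Nedd4, Ppp1r3b, Serpinb1a, Slc40a1 and Zfp985), with 1 gene among both kinds, which makes 14 in all. What remained were 23 genes that were higher in knock-out and 44 that were higher in ΔTAD macrophages. The gap between the edited genotypes is therefore given as a description without a test. Levels relative to wild-type are described too, and test calls against wild-type are given once as counts from which nothing is read, because a 4-fold gap between knock-out and ΔTAD forces a distance from wild-type in at least 1 of them.

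RNA of unstimulated RAW264.7 cells, a mouse macrophage line that arose from a virus-induced tumour, was sequenced in 3 libraries of each Cebpd genotype (wild-type, knock-out and TAD mutant, here ΔTAD). The ΔTAD cells are homozygous for a CRISPR/Cas9 deletion of the transactivation domain, and clones in which that deletion shifted the reading frame served as the knock-out, so both edited genotypes went through transfection, sorting and outgrowth from single cells and the study describes wild-type clones as well. Whether the libraries of a genotype, wild-type included, come from separate clones is not given in the sources used here, so differences between genotypes and between clones cannot be told apart, and the spread between libraries may be technical. The libraries held 16113306 to 20981829 counts on genes, and 3 counts, the floor used here, correspond to 0.143 to 0.186 CPM.

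Of 9 macrophage markers, 8 stood at 10 CPM or more in wild-type macrophages, among them the growth factor receptor Csf1r, Cd68 and the lysozyme gene Lyz2, and only Mertk was at or near 0. The summed level of this list was 2770 CPM for wild-type, 3830 for knock-out and 5860 for ΔTAD macrophages. Most of this difference was that of Lyz2, without which the sums were 1583, 1686 and 1831 CPM, and Fcgr1 (40.4, 18.1 and 27.9 CPM) and Itgam were highest in wild-type. Markers of fibroblasts, epithelium, T cells, B cells and mast cells did not exceed 3 counts in any library. S100a8 of the neutrophil list reached 26 counts and Pecam1 of the endothelial list 51. Cebpd itself stood at 6.26, 7.48 and 6.27 CPM in wild-type, 5.30, 5.56 and 5.68 in knock-out and 4.34, 5.23 and 6.20 in ΔTAD libraries. The edits remove only a stretch of this gene, so its count checks no label. ΔTAD replicate 1 stood apart from all other libraries, as described with the genes that rest on it. Over all genes, the median chi-square against the other ΔTAD libraries was 6.27 and 6.21 times that of counting error alone. For the other pairs of replicates it was 1.42 to 1.77 times. The genes that rest on this library took 12.2% of its counts. That share lowers the CPM of all its other genes and so enters the ΔTAD means and spreads. In bulk RNA, fewer cells with a transcript and less transcript per cell cannot be told apart.

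C/EBPδ belongs to the CCAAT/enhancer-binding proteins, transcription factors that bind DNA as dimers through a basic leucine zipper at the C-terminus and recruit the transcription machinery through transactivation domains towards the N-terminus. In macrophages it is known as a factor whose amount increases after contact with bacterial lipopolysaccharide and that takes part in the transcription of cytokine genes. A protein without the transactivation domain can keep its zipper and still occupy DNA or pair with other C/EBP proteins, whereas a frameshifted gene makes no such protein. Both states therefore lack activation by C/EBPδ but differ in what may sit on the DNA, which is the comparison that the study made between knock-out and ΔTAD macrophages.

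The switched genes are few beside the genes expressed in these cells. Of 11607 genes with a mean of 2 CPM or more in knock-out or ΔTAD macrophages, 0.698% had the 4-fold gap and 0.577% were kept. The libraries of the edited genotypes did not overlap for 64 of the 67 genes, where 42.5% of those 11607 genes had no overlap. The 3 that overlapped were Gm1821, mt-Rnr1 and Gm24270. By annotation 56 were protein-coding, 4 were long intergenic RNAs, 2 microRNA genes, 2 pseudogenes, 2 ribosomal RNAs and 1 an antisense RNA. They lay on 18 autosomes, on X and on the mitochondrial genome, with at most 7 on a chromosome (chromosome 9). Those 7 include Lars2 and the microRNA genes Mir6236 and Gm24270, whose place rests on ΔTAD replicate 1, as does that of the ribosomal RNAs and the antisense RNA.

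**Figure D1:**
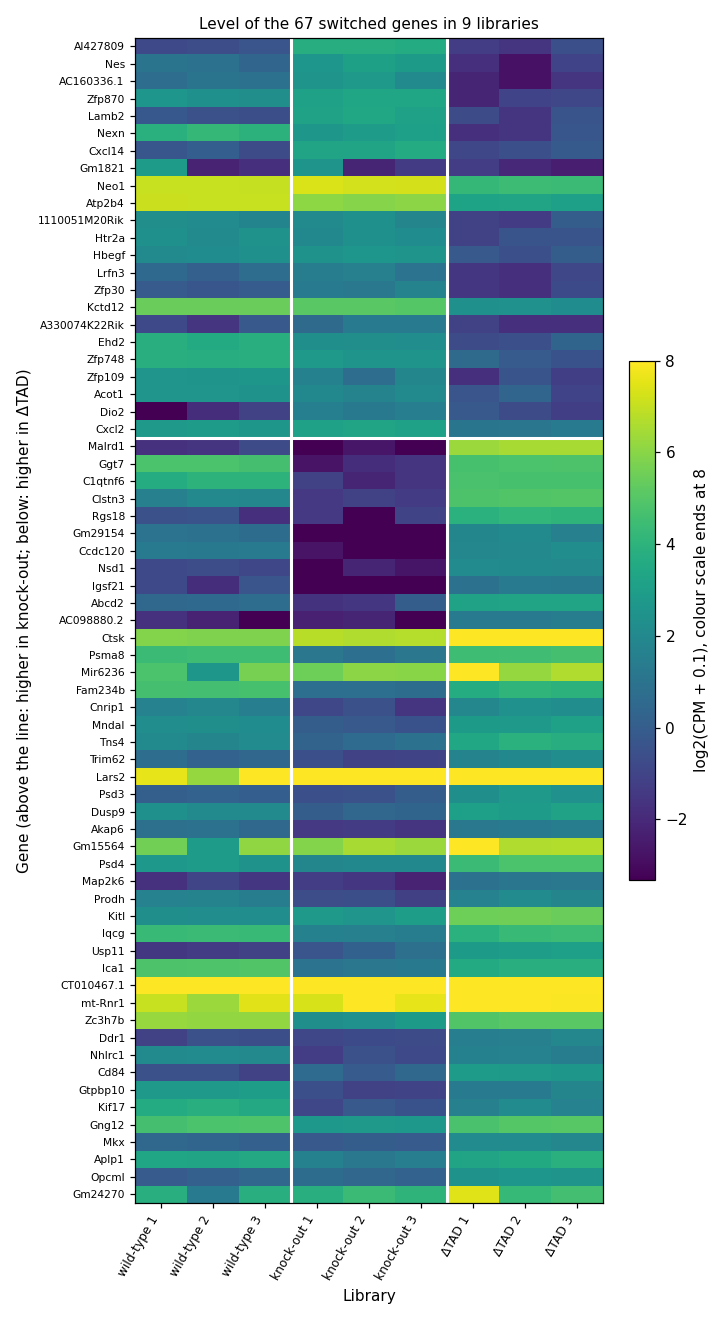
Level of each of the 67 genes (rows) in each of the 9 libraries (columns), as log2 of CPM plus 0.1, with the colour scale ended at 8. Above the white line stand the 23 genes that were higher in knock-out and below it the 44 that were higher in ΔTAD macrophages; the replicates of a genotype resemble each other except for Gm1821 and for the 6 genes that are far higher in ΔTAD replicate 1.

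Set against wild-type with the same 4-fold limit and the same 0.1 added, the genes fell into a few kinds. Among the 44 genes that were higher in ΔTAD macrophages, 17 were at most 0.25 of wild-type in knock-out macrophages and within 4-fold of it in ΔTAD, and 19 were the reverse, near wild-type in knock-out and at least 4 times as high in ΔTAD (13 without the 6 genes that rest on ΔTAD replicate 1). Among the 23 that were higher in knock-out, 14 were near wild-type there and low in ΔTAD macrophages, and 4 were at least 4 times wild-type in knock-out and near it in ΔTAD. By this limit, the gap came from a low level in 1 edited genotype for 31 genes and from a high level in 1 for 23. Of the latter, 6 rest on ΔTAD replicate 1 alone and 17 remain without them. The 14 genes low in ΔTAD, and so the 31, include Gm1821, which was high only in knock-out replicate 1 and wild-type replicate 1. Its other libraries were as low as those of ΔTAD. Clstn3, Igsf21 and Nes were beyond 4-fold in both edited genotypes with opposite sign, and 10 genes stayed within 4-fold of wild-type in both. On plain means 5 genes were on opposite sides, Malrd1 and Nsd1 besides these 3, though Malrd1, Nsd1 and Igsf21 had at most 3 counts in every knock-out library. The wild-type mean lay between the edited means for 39 genes, above both for 16 and below both for 12, or for 6 without the genes that rest on ΔTAD replicate 1.

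Clstn3, which encodes the synaptic adhesion protein calsyntenin-3, stood on both sides of wild-type. Its levels were 2.95, 3.98 and 3.72 CPM in wild-type, 0.268, 0.367 and 0.287 in knock-out and 28.6, 30.2 and 31.0 in ΔTAD libraries. The 3 groups did not overlap, and the libraries of a genotype lay close together. The knock-out mean was 0.0865 of wild-type and the ΔTAD mean 8.43 times wild-type, so that 97.5-fold separated the edited genotypes. The gene spans chr6:124430759-124464794 on the minus strand of GRCm38.

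Igsf21, an immunoglobulin superfamily gene with a known role at inhibitory synapses, had the same order at far lower levels. It gave 9, 3 and 11 counts in wild-type, none in the knock-out and 28, 51 and 48 in the ΔTAD libraries. Because every knock-out library was at 0, its fold is a lower bound against the floor of 3 counts per library, at least 12.5-fold higher in ΔTAD than in knock-out macrophages. Nes was the mirror image. Nestin, its product, is an intermediate filament best known from neural progenitors. The levels of Nes were 1.93, 1.78 and 1.18 CPM in wild-type, 6.10, 8.62 and 7.18 in knock-out and 0.186, 0.0479 and 0.381 in ΔTAD libraries. All 3 groups were apart, with a knock-out mean of 7.30 ± 1.26 CPM against 0.205 ± 0.167 in ΔTAD (SD, n = 3 each).

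The promoters of Clstn3 and Nes are shown because these genes lay on both sides of wild-type in opposite order. Both are the 250 bases before the start of the RefSeq transcript on GRCm38.p6, written 5′ to 3′ on the strand of the gene. Capitals mark CCAAT, the box after which the C/EBP proteins were named, on either strand (ATTGG where it lies on the other strand). The Clstn3 window holds it at 2 places and the Nes window at none. The window of Igsf21, which had the same order of genotypes as Clstn3, is not shown and holds none either.
Clstn3, chr6:124464785-124465034, minus strand: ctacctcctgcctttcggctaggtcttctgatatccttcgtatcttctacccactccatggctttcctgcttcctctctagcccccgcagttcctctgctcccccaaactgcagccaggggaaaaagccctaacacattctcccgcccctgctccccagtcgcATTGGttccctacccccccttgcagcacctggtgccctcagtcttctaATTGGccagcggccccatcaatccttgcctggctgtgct
Nes, chr3:87970843-87971092, plus strand: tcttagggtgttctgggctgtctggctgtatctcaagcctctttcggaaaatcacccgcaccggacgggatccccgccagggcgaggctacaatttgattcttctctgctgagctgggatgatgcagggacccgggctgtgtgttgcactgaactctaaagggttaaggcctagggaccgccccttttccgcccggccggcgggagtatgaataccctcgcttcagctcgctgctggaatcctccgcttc

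The largest gap of all belonged to Malrd1, at chr2:15526479-16255555 on the plus strand. It encodes a protein with MAM and LDL-receptor class A domains that is known from the gut, where it affects the release of the hormone FGF15. It was near absence in wild-type macrophages, with 4, 4 and 8 counts, and in knock-out macrophages, with 0, 1 and 0. In the ΔTAD libraries it gave 1270, 1900 and 1924 counts, or 78.8, 91.1 and 91.7 CPM. The ΔTAD mean was 279 times wild-type. Against knock-out, where 1 count was found in all, the ratio of summed counts was 4610 with an exact 95% counting interval of 827 to 182000. Gm6587, a processed pseudogene inside Malrd1 on the same strand, was named after its values were seen: it had a mean of 0.959 CPM in ΔTAD and 0 in both other genotypes.

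Ctsk was the most abundant gene of the set outside the group that rests on 1 library. It encodes cathepsin K, the lysosomal cysteine protease with which osteoclasts break down bone collagen, and lies at chr3:95499256-95509362 on the plus strand. Wild-type libraries held 1174, 950 and 914 counts, knock-out libraries 2032, 1623 and 1855, and ΔTAD libraries 22607, 32135 and 31764. Every knock-out library was above every wild-type library and every ΔTAD library far above both. The ΔTAD mean of 1490 ± 72.9 CPM was 25.8 times wild-type and 14.2 times knock-out (SD, n = 3). Per kilobase of exon, the scale on which genes can be compared, Ctsk reached 983 CPM per kb in ΔTAD macrophages, where Malrd1 reached 12.9 and Clstn3 6.03.

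Other genes that stood far above wild-type in ΔTAD but not in knock-out macrophages include signalling molecules and receptors. Kitl, which encodes stem cell factor, the ligand of the receptor tyrosine kinase Kit, stood at 4.94, 4.63 and 4.65 CPM in wild-type, 6.96, 5.87 and 7.98 in knock-out and 45.5, 46.9 and 42.8 in ΔTAD libraries. No ΔTAD library came near the others, and the ΔTAD mean was 9.51 times wild-type. Rgs18, a GTPase-activating regulator of G protein signalling in blood cells, gave 12, 11 and 3 counts in wild-type, 5, 0 and 7 in knock-out and 239, 379 and 346 in ΔTAD libraries, so that wild-type and knock-out overlapped. Cd84 encodes a self-binding receptor of the SLAM family on leukocytes. It had 12, 10 and 6 counts in wild-type, 27, 14 and 23 in knock-out and 118, 143 and 133 in ΔTAD libraries, which put the ΔTAD mean at 13 times wild-type.

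The kinases and the phosphatase of the set that the lists hold were all higher in ΔTAD macrophages. Map2k6, the kinase MKK6 that activates p38, gave 4, 7 and 4 counts in wild-type, 6, 4 and 2 in knock-out and 29, 43 and 47 in ΔTAD libraries. Ddr1, a receptor tyrosine kinase for collagen, gave 7, 10 and 9 counts in wild-type, 8, 8 and 9 in knock-out and 45, 61 and 77 in ΔTAD libraries. Both genes were alike in wild-type and knock-out and separate only in ΔTAD. Dusp9, a phosphatase of MAP kinases, was of another kind, with means of 4.49 ± 0.522 CPM for wild-type, 1.09 ± 0.163 for knock-out and 8.21 ± 0.837 for ΔTAD (SD, n = 3 each), that is, on either side of wild-type.

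Abcd2, a peroxisomal transporter of very-long-chain fatty acyl-CoA, had means of 1.41, 0.459 and 9.39 CPM in wild-type, knock-out and ΔTAD macrophages. Usp11, a deubiquitinating enzyme, stood at 0.308, 1.15 and 7.79 CPM in that order, with the ΔTAD mean 25.3 times wild-type. Nsd1, a methyltransferase of histone H3 lysine 36, had 9, 9 and 7 counts in wild-type, 0, 2 and 1 in knock-out and 70, 84 and 82 in ΔTAD libraries. Its ratio of summed counts between ΔTAD and knock-out was 71.2 with an exact 95% counting interval of 24.1 to 348. For AC098880.2, a processed pseudogene whose reads could come from its parent gene, the same ratio was 34.2, with an interval of 13.1 to 127. Such intervals cover counting error only.

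**Figure D2:**
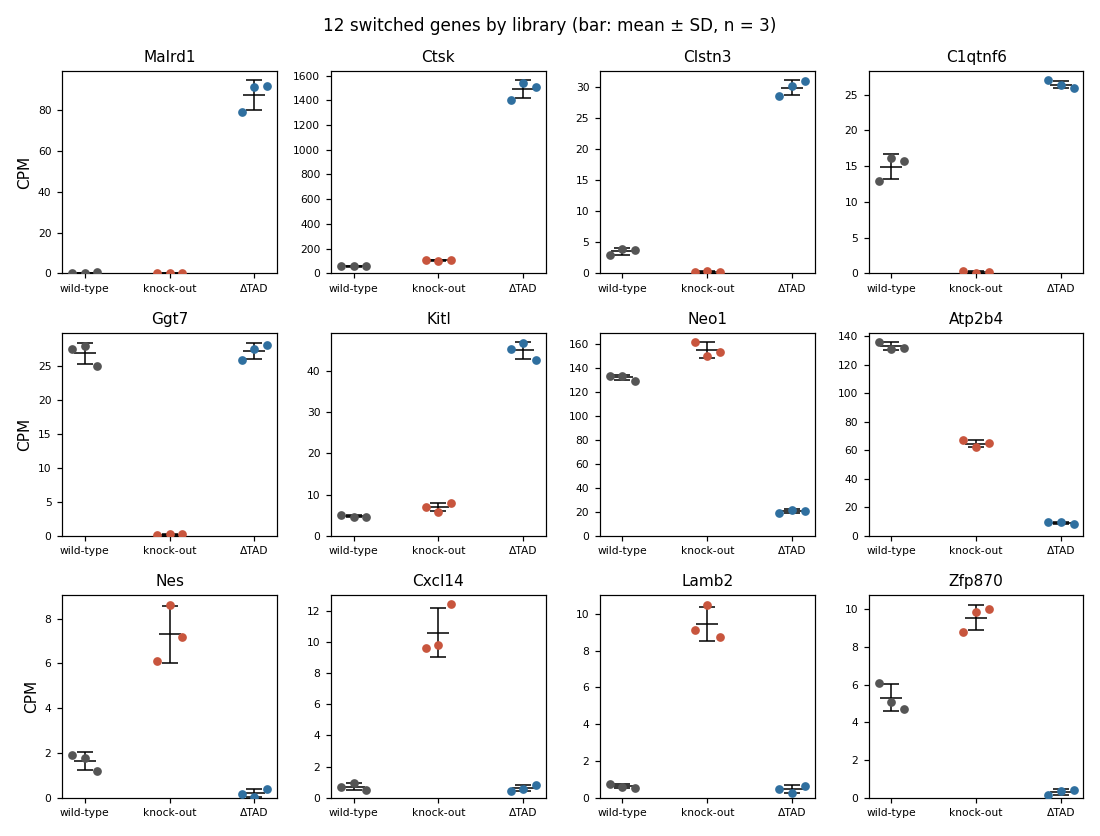
CPM of 12 switched genes in each library (points), with the mean and SD of the 3 libraries of a genotype (bars); every axis starts at 0 and each panel has its own scale. Malrd1, Ctsk, Clstn3 and Kitl are highest in ΔTAD, C1qtnf6 and Ggt7 are near 0 only in knock-out, Neo1, Atp2b4 and Zfp870 are lowest in ΔTAD, and Nes, Cxcl14 and Lamb2 are highest in knock-out.

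The 17 genes that were at most 0.25 of wild-type in knock-out macrophages alone had ΔTAD means from 0.278 (Kif17) to 2.01 (Gm29154) of wild-type. Ggt7, a member of the gamma-glutamyltransferase family at chr2:155490379-155518237 on the minus strand, is the clearest of them. It stood at 27.6, 28.0 and 25 CPM in wild-type, at 0.0535, 0.183 and 0.230 in knock-out and at 25.9, 27.5 and 28.2 in ΔTAD libraries. Wild-type and ΔTAD libraries overlapped, and their means differed by a factor of 1.01, while the knock-out mean was 0.00579 of wild-type. That mean rests on 1, 3 and 4 counts, about the floor, so the ratio is uncertain. Ggt7 overlaps Acss2 on the other strand, whose means were 11.4, 14.2 and 24.4 CPM in wild-type, knock-out and ΔTAD macrophages.

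C1qtnf6 encodes a secreted protein of the C1q and TNF related family. It gave 254, 272 and 253 counts in wild-type, 7, 2 and 4 in knock-out and 435, 549 and 546 in ΔTAD libraries. ΔTAD macrophages thus held 26.4 ± 0.499 CPM against 14.9 ± 1.74 in wild-type (SD, n = 3 each), with no overlap between the groups, and 109-fold separated ΔTAD from knock-out. Psma8 encodes a proteasome subunit that is known from the testis. It had means of 21.9 ± 0.831, 1.97 ± 0.278 and 23.4 ± 1.48 CPM in wild-type, knock-out and ΔTAD macrophages (SD, n = 3 each), and reads shared with the closely related Psma7 would make these values uncertain.

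The remaining genes low in knock-out alone spread over unrelated functions. Gng12, a G protein gamma subunit, was the closest to the limit, with 27.5, 6.56 and 30.6 CPM in wild-type, knock-out and ΔTAD macrophages. Zc3h7b, an RNA-binding zinc finger protein, stood at 73.2 CPM for wild-type, 5.75 for knock-out and 32.7 for ΔTAD. Ica1, an autoantigen of pancreatic islets that sits on secretory vesicles, stood at 29.3, 2.10 and 13.1 CPM in that order. Zc3h7b and Ica1 belong to the 7 genes whose wild-type mean was above both edited means, as do Kif17, a kinesin motor, and Nhlrc1, the ubiquitin ligase malin. Fam234b (25.4, 1.60 and 14.9 CPM) and Iqcg (20.3, 2.86 and 18.6 CPM) are also among the most abundant of the set.

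At the lowest levels, Ccdc120 and Gm29154 were detected in every wild-type and ΔTAD library and almost not at all in knock-out macrophages. Ccdc120, a gene for a coiled-coil protein, gave 49, 38 and 40 counts in wild-type, 1, 0 and 0 in knock-out and 59, 83 and 97 in ΔTAD libraries, a ratio of summed counts of 216 between ΔTAD and knock-out with an exact 95% counting interval of 38.5 to 8580. Gm29154, a long intergenic RNA, gave 37, 31 and 24 counts in wild-type, none in the knock-out and 57, 84 and 61 in the ΔTAD libraries. Against the floor of 3 counts per library it was at least 20.3-fold higher in ΔTAD and at least 10.1-fold higher in wild-type than in knock-out macrophages. A count of 0 in 3 libraries says that the RNA was not detected at this depth.

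Of the genes that were higher in knock-out macrophages, the most abundant were near wild-type there and low in ΔTAD. Neo1 encodes neogenin, a receptor of netrins and repulsive guidance molecules, at chr9:58874687-59036441 on the minus strand. It stood at 133, 133 and 129 CPM in wild-type, 162, 150 and 153 in knock-out and 18.6, 21.7 and 20.9 in ΔTAD libraries. The knock-out libraries were all a little above the wild-type ones, and the ΔTAD mean was 0.154 of wild-type. Atp2b4, which encodes a plasma membrane pump that exports calcium, was graded, with means of 133 ± 2.91 CPM for wild-type, 64.7 ± 2.52 for knock-out and 9.03 ± 0.698 for ΔTAD (SD, n = 3 each). Kctd12, an auxiliary subunit of GABA-B receptors, followed the same order with 42.9 ± 0.335, 33.3 ± 1.07 and 4.93 ± 0.397 CPM (SD, n = 3 each).

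Nexn had the greatest distance from wild-type on the low side in ΔTAD macrophages. It encodes nexilin, an actin-binding protein of muscle and adhesion sites, and lies at chr3:152236982-152266350 on the minus strand. Its counts were 282, 312 and 249 in wild-type, 116, 120 and 145 in knock-out and 3, 5 and 15 in ΔTAD libraries. No groups overlapped, and wild-type was 42.4 times ΔTAD and 2.21 times knock-out. Ehd2, an ATPase at caveolae, gave means of 13, 4.76 and 0.739 CPM in wild-type, knock-out and ΔTAD macrophages. Htr2a, the serotonin receptor 2A, stood at 4.91 ± 0.754 CPM in wild-type and 4.41 ± 0.664 in knock-out, where the libraries overlapped, and at 0.570 ± 0.171 in ΔTAD (SD, n = 3 each). Acot1, a cytosolic thioesterase of long-chain acyl-CoA with closely related neighbours that can share reads, had 5.80, 3.69 and 0.754 CPM in that order.

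A list of transcription factor and zinc finger gene symbols, with 500 genes at a mean of 2 CPM or more in any genotype, held 4 switched genes, all Zfp genes and all higher in knock-out than in ΔTAD macrophages. For comparison, the set made up 0.577% of the genes at this level in the edited genotypes. The list does not hold Mkx, the gene of the homeobox transcription factor Mohawk, which was higher in ΔTAD, with 1.15, 0.860 and 4.12 CPM in wild-type, knock-out and ΔTAD. Nor does it hold the zinc finger gene Zc3h7b, also higher in ΔTAD (32.7 CPM) than in knock-out (5.75 CPM). Zfp870 gave 120, 86 and 76 counts in wild-type, 164, 161 and 175 in knock-out and 2, 8 and 9 in ΔTAD libraries. Zfp748 gave 265, 221 and 221, then 123, 93 and 100, and 23, 18 and 13 in the same order of genotypes. Wild-type lay between the edited genotypes for Zfp870 and above both for Zfp748. Zfp109 had means of 5.97, 2.71 and 0.397 CPM and Zfp30 of 0.815, 2.59 and 0.306 CPM in wild-type, knock-out and ΔTAD. Zinc finger genes of this kind occur in clusters of similar copies, so part of their counts may belong to a relative.

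The genes that were high in knock-out macrophages alone include a chemokine and a matrix protein. Cxcl14, a chemokine made by many epithelia that acts on myeloid cells, gave 14, 16 and 8 counts in wild-type, 180, 160 and 216 in knock-out and 7, 12 and 17 in ΔTAD libraries. Wild-type and ΔTAD overlapped, and the knock-out mean was 14.7 times wild-type. Lamb2, the laminin β2 chain of basement membranes, gave 15, 10 and 9 counts in wild-type, 170, 171 and 152 in knock-out and 8, 5 and 14 in ΔTAD libraries. The long intergenic RNA AI427809 was the extreme of this kind, with 9, 9 and 11 counts in wild-type, 246, 214 and 215 in knock-out and 5, 5 and 12 in ΔTAD libraries, a knock-out mean 23.0 times wild-type. Dio2, the deiodinase that makes active thyroid hormone, gave 0, 3 and 6 counts in wild-type, 53, 37 and 48 in knock-out and 13, 11 and 7 in ΔTAD libraries, and left the set without knock-out replicate 1, ΔTAD replicate 3 or wild-type replicate 3.

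AC160336.1, a second long intergenic RNA, was also among the largest gaps, with 1.74 ± 0.216 CPM for wild-type, 5.49 ± 1.36 for knock-out and 0.137 ± 0.0958 for ΔTAD (SD, n = 3 each). Gm1821, a transcribed pseudogene, owes its place to 1 knock-out library. It gave 142, 2 and 3 counts in wild-type, 108, 2 and 5 in knock-out and 5, 3 and 2 in ΔTAD libraries. Only wild-type replicate 1 and knock-out replicate 1 were high, and without the latter it was no longer in the set.

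Cxcl2, a chemokine that attracts neutrophils, was the gene nearest to the limit on the inside, with a ratio of 4.06. Its libraries held 6.77, 7.66 and 6.21 CPM in wild-type, 8.83, 9.60 and 8.78 in knock-out and 1.99, 2.11 and 2.38 in ΔTAD. Next to it stood Dio2 at 4.14 and Gm24270 at 4.24. Just outside were Mto1, an enzyme that modifies mitochondrial transfer RNA, at 3.95 with 41.1, 201 and 50.7 CPM in wild-type, knock-out and ΔTAD, Rab11fip4 at 3.90 and the interferon-induced Oas2 at 3.88. Cxcl2 fell outside the limit when libraries were scaled by TMM or by DESeq2's size factors, and without knock-out replicate 2 or ΔTAD replicate 1. For the higher mean, Map2k6 at 2.03 CPM and Gm1821 at 2.06 were just inside.

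By known function, as far as lists of gene symbols go, the genes were scattered. Of 61 cytokines, chemokines and their receptors with 2 CPM or more in any genotype, 2 were in the set, Cxcl14 and Cxcl2, both higher in knock-out. Kitl, a cytokine that this list leaves out, was higher in ΔTAD. Immune surface receptors gave 1 gene (Cd84), membrane transporters 2 of 266 (Abcd2 and Atp2b4), and G protein-coupled receptors and their regulators 2 of 59 (Htr2a and Rgs18). The list of adhesion and matrix genes, which leaves out Lrfn3 and Opcml, gave 3 of 75: Clstn3, Lamb2 and Tns4, the gene of a focal adhesion tensin, which stood at 4.01, 1.48 and 12.9 CPM in wild-type, knock-out and ΔTAD. Proteases gave 2 of 114 (Ctsk and Usp11), kinases and phosphatases 3 of 296, and lipid enzymes 1 of 156 (Acot1). Of the lists as written, none of the 20 genes of antigen presentation, 38 interferon-stimulated genes, 50 ion channel genes, 20 imprinted genes, 28 genes of DNA methylation and silencing or 9 C/EBP and NF-Y genes was in the set. The interferon list leaves out Mndal, which is of the same interferon-inducible family as Ifi203, a gene it overlaps. Mndal was in the set, with 4.64, 0.779 and 7.62 CPM in wild-type, knock-out and ΔTAD. For comparison, the set made up 0.577% of the genes at this level in the edited genotypes.

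When wild-type was compared by edgeR's quasi-likelihood test and genes were called at 0.01 after Benjamini-Hochberg adjustment, 66 of the 67 genes could be tested. In knock-out macrophages 34 were called lower, where 22.4% of all 14312 genes tested were, and 16 higher, where 22.8% were, against 45.2% called in all. In ΔTAD macrophages 22 were called lower (23.4% of all genes) and 33 higher (26.3%), against 49.7% in all. These 33 include the genes that rest on ΔTAD replicate 1, and 27 were called higher with those left out. DESeq2 called 25 higher. These counts describe where the genes lay and, as the rule forces a distance from wild-type, carry no further weight. By direction of the gap, 12 of the 23 genes higher in knock-out were called higher than wild-type in knock-out and 17 lower in ΔTAD, while 27 of the 44 higher in ΔTAD were called lower in knock-out and 33 higher in ΔTAD. Of the 23, 7 were called lower than wild-type in knock-out. Of the 44, 5 were called lower in ΔTAD and 4 higher in knock-out. Where a log2 difference of 1 or more was asked for as well, 10 rather than 16 were called higher in knock-out, beside 3.62% of all genes.

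The promoters of these genes were looked at for short motifs, a property the rule did not use. RefSeq windows of 250 bases before the transcript start were found for 40 of the 67 genes. The letters TTGCNNAA, a form of the site that C/EBP dimers recognise, occurred on either strand in 4 of the 40 (10.0%), beside 6.99% of the promoters of 7722 genes with a mean of 2 CPM or more and 9.15% of all 17381 promoters. CCAAT occurred on either strand in 9 of 40 (22.5%), beside 37.7% and 35.4%. TATAAA was found in 3 of 40 (7.50%), beside 5.56% and 10.8%. The median number of CG dinucleotides in a window was 12.5, beside 17.0 in expressed genes and 10.0 in all. A match is a description of the letters and not of binding, and no test was made of these shares.

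The 4 windows with TTGCNNAA are shown because C/EBP dimers are known to recognise such letters, and that motif, CCAAT and TATAAA are in capitals. Ctsk and Gm29154 were higher in ΔTAD and Acot1 and Dio2 higher in knock-out macrophages, so the motif stood before genes of either direction. Acot1 has it at 2 places together with CCAAT, Ctsk and Dio2 have it on the other strand, and Dio2 also has TATAAA close to the start. The Dio2 window ends at a RefSeq start that lies 600 bases before the annotated 5′ end used for the other values. That of Gm29154 ends at a start 236 bases inside the annotated gene, so nearly all of this window is part of the gene as counted.
Ctsk, chr3:95498960-95499209, plus strand: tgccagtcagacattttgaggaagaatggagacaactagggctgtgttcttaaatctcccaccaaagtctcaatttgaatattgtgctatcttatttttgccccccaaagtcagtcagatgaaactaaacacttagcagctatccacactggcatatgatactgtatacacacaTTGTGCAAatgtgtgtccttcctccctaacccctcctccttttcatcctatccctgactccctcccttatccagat
Gm29154, chr9:103960141-103960390, minus strand: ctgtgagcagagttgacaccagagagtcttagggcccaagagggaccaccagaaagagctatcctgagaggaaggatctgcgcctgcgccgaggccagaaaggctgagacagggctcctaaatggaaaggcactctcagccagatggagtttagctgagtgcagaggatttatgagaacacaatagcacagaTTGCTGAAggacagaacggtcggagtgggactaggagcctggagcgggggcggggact
Acot1, chr12:84009252-84009501, plus strand: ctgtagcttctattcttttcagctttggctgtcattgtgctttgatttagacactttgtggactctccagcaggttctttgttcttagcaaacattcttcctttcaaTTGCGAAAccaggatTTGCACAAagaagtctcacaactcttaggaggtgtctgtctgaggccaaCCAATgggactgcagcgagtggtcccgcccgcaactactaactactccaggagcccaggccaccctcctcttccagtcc
Dio2, chr12:90739039-90739288, minus strand: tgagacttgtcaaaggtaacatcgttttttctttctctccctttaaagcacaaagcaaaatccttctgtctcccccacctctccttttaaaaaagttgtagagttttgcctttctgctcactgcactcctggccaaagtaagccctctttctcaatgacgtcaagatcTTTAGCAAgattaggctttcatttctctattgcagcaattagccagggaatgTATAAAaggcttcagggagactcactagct

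The position of the genes on the chromosomes was not used by the rule either. For 66 of the 67 genes, 3 or more other tested genes start within 1 Mb, and the median log2 difference between knock-out and ΔTAD of these neighbours was within 0.2 of 0 for 62. The highest such median was 0.93, around Gtpbp10, whose neighbours were higher in knock-out while Gtpbp10, a GTPase of mitochondrial ribosomes, was itself higher in ΔTAD. The others beyond 0.2 were Nexn at 0.38, Kctd12 at 0.32 and Psd3, an exchange factor of ARF6, at -0.34. Of 1550 neighbours, 38 (2.45%) differed 2-fold or more in the direction of the switched gene beside them, and 3.11% and 2.16% of all tested genes were 2-fold higher in knock-out and in ΔTAD. For 40 genes no neighbour did so. As a background to all levels, the median log2 fold change against wild-type of the genes on chromosome 12 was -0.52 in knock-out and -0.54 in ΔTAD, and that of chromosome 17 was 0.48 and 0.50, nearly equal in both edited genotypes.

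**Figure D3:**
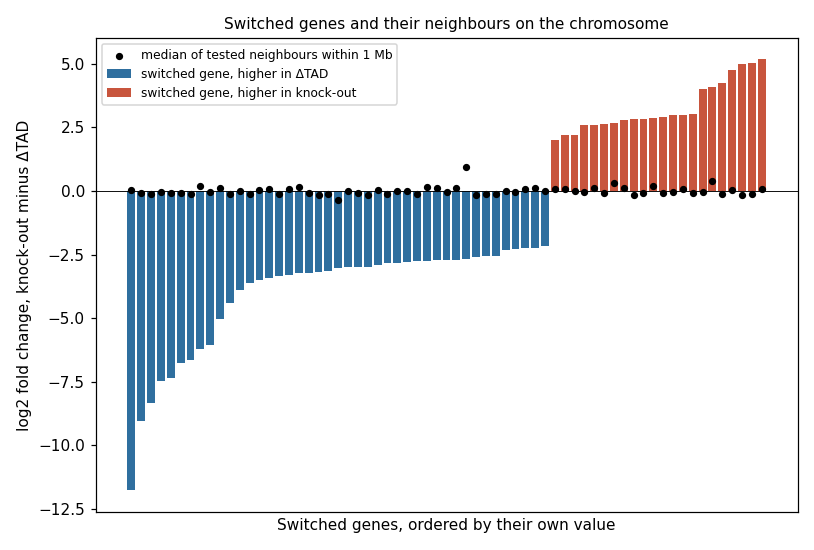
Bars give edgeR's log2 fold change of knock-out minus ΔTAD for the 65 switched genes that were tested and have at least 3 tested neighbours, ordered by value; black points give the median of the neighbours within 1 Mb of each. Of these medians, 4 lie beyond 0.2 of 0, at 0.93 (Gtpbp10), 0.38 (Nexn), 0.32 (Kctd12) and -0.34 (Psd3).

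Lrfn3, Zfp30 and Aplp1 on chromosome 7 were the only switched genes within 1 Mb of each other. Lrfn3, a synaptic adhesion gene, had means of 1.31, 2.48 and 0.290 CPM and Zfp30 of 0.815, 2.59 and 0.306 CPM in wild-type, knock-out and ΔTAD macrophages, whereas Aplp1, a relative of the amyloid precursor protein, had 10.4, 2.65 and 11.9 CPM. Of these 3 neighbours, Aplp1 thus went the opposite way. Several genes overlap others on the opposite strand, among them Zc3h7b with Rangap1, Iqcg with Lrch3 and Cnrip1 with Plek, and the strand setting of the counting is not given in the sources used here. Rangap1 held 322, 241 and 262 CPM, Lrch3 61.3, 62.3 and 57.9 and Plek 1210, 925 and 632 in wild-type, knock-out and ΔTAD, and none of these 3 had the gap of the gene it overlaps. Others on the opposite strand did differ in the same direction: Gm47271 over Neo1 held 0.714 CPM in knock-out and 0.032 in ΔTAD, Gm15991 over Psd3 0.0408 and 0.545, and Hebp1 over Fam234b 5.10 and 11.5.

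The last 6 genes form a group of their own, because their place rests on ΔTAD replicate 1. CT010467.1, annotated as a ribosomal RNA gene, gave 122880, 51032 and 109963 counts in wild-type, 126699, 141106 and 121792 in knock-out and 1772716, 239190 and 244268 in ΔTAD libraries. Only the first ΔTAD library stood out, and it was 1 of 3. The mitochondrial ribosomal RNA mt-Rnr1 had 49637, 6023 and 5129 counts in the ΔTAD libraries, Lars2, the gene of a mitochondrial leucyl-tRNA synthetase, 90681, 8388 and 9578, and the antisense gene Gm15564 22093, 2095 and 2147. The microRNA genes Mir6236 and Gm24270 had 23838, 1553 and 2093, and 2789, 402 and 519. Together the 6 genes took 12.2% of the counts of ΔTAD replicate 1, 1.24% and 1.26% of the other ΔTAD libraries, 0.731% to 0.943% in knock-out and 0.320% to 0.741% in wild-type libraries. Relative to 1000 counts of CT010467.1, mt-Rnr1 kept to a range of 21 to 30.4 counts over the 9 libraries, whereas Mir6236 ranged from 2.08 in wild-type replicate 2 to 13.4 in ΔTAD replicate 1.

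The libraries had been depleted of ribosomal RNA, and the part of the depletion in these values was not tested. Without ΔTAD replicate 1 none of the 6 was in the set, and 61 genes remained when they were simply removed, 23 higher in knock-out and 38 higher in ΔTAD. Their ΔTAD means of 72.4 to 44400 CPM therefore describe 1 library and are not means of like replicates. The mature sequence of Mir6236 is shown to make plain what its label means. It is the RefSeq entry at chr9:110281353-110281371 on the plus strand of GRCm38.p6, with the seed in capitals. The libraries were made from total RNA, so their reads count RNA over this locus and not the mature microRNA.
mmu-miR-6236: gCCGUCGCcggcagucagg

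**Figure D4:**
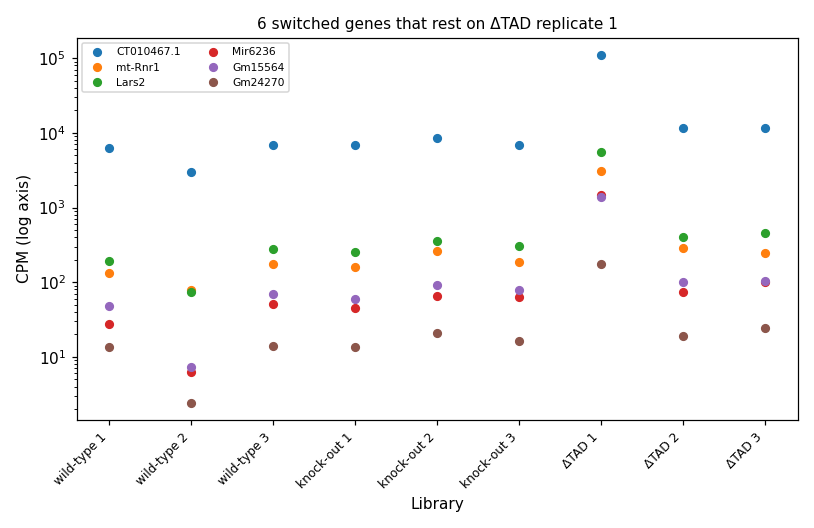
CPM (log axis) of the 6 genes whose place in the set rests on ΔTAD replicate 1, in each of the 9 libraries, 1 colour per gene. All 6 are highest in ΔTAD replicate 1, the other ΔTAD libraries lie far nearer to the knock-out libraries, and wild-type replicate 2 is lowest.

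The other 61 genes had a larger relative spread between the libraries of a genotype than the median gene, without matching for level. Of the 67 genes, 25 had a higher mean under 5 CPM, where counting error alone widens this spread. The part of level in the difference was not tested. The coefficient of variation over the 3 libraries of the higher genotype had a median of 11.9% for genes higher in knock-out and of 10.1% for those higher in ΔTAD, where the median of all genes with 2 CPM or more was 4.07% in knock-out and 8.19% in ΔTAD. Both ΔTAD values include replicate 1, whose TMM factor was 0.888 beside 0.999 and 1.002 in the other ΔTAD libraries. For genes higher in knock-out this coefficient ranged from 3.03% to 156% (Gm1821), with Zfp109 at 39.5%. For those higher in ΔTAD it ranged from 1.89% to 21.6%. Of the 67 genes, 51 stayed in the set whichever of the 9 libraries was left out. The 16 that did not comprise the 6 genes above together with Gm1821, A330074K22Rik, Acot1, Dio2, Cxcl2, Map2k6, Usp11, Kif17, Aplp1 and Opcml. Clstn3, Malrd1, Ctsk, Ggt7, C1qtnf6, Kitl, Neo1, Atp2b4, Nexn, Nes, Lamb2 and Cxcl14 were among those that stayed in every case.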

How the data were processed

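RNA from 9 libraries of unstimulated RAW264.7 cells was analysed. Per the labels and the study's methods, the authors removed ribosomal RNA and sequenced single ends. Reads were trimmed (Trimmomatic), aligned to GRCm38 (HISAT2) and assigned to Ensembl genes by HTSeq, whose mode and strand setting are not given in the sources used here. The deposited values are raw counts, whole numbers without normalization, for 55487 genes and 5 tally lines per library, which were left out of totals and tests. Genes received 46.65% to 53.23% of the records (16113306 to 20981829 counts).

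CPM were computed from the totals over all genes. Against wild-type, counts were fitted with edgeR 4.0.16 in R 4.3.3 (filterByExpr with minimum count 10 and minimum total 15, 14312 genes, TMM, 1 quasi-likelihood model of 9 libraries, adjusted p-value under 0.01). Folds against a genotype with 0 counts in every library were set against 3 counts per library. Positions and exon lengths come from GENCODE on GRCm38, and promoters and the microRNA from RefSeq on GRCm38.p6. The edgeR fit was tested on simulated counts for knock-out against wild-type, and the rule and the motif search on small made-up examples. The other steps were not tested in this way.

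The genes and lists were chosen with earlier results of these data known. Named are the 8 highest and the 8 most different genes in each direction, genes of the lists, genes within 1 Mb of each other, the 3 on each side of the 4-fold limit, and Cebpd. Genes named beyond this rule were chosen after their values were seen. Replicate numbers come from the donor labels. Same-numbered libraries did not deviate together (r from -0.072 to 0.02 over 9 pairs), so the numbers pair nothing. Alternatives were DESeq2 1.42.0, other scalings, filters, limits and constants, a replicate block and leaving out each library. Chosen after seeing the data were the median in place of the mean and the removal of the 6 genes that rest on 1 library.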

Additional observations from a re-analysis of the deposited data

How the results depend on the processing

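The number of genes depended most on its own limits. With 1 in place of 0.1 added to the mean CPM, 38 genes met the rule, 10 higher in knock-out and 28 higher in ΔTAD. A higher mean of at least 5 CPM left 42 genes, 13 and 29 in that order, and an 8-fold gap left 25, 7 and 18. Where an absolute log2 difference of 1 or more was asked for as well, 10 genes were called higher than wild-type in knock-out macrophages. The other 113 of 123 alternative values stayed within 1.5 times the reported count. Leaving out 1 library at a time gave 63 to 70 genes, 22 to 27 of them higher in knock-out and 40 to 46 higher in ΔTAD. Calls against wild-type were then 33 to 34 lower and 14 to 22 higher in knock-out, and 21 to 22 lower and 31 to 33 higher in ΔTAD. Scaling by TMM or by DESeq2's size factors left 65 genes, without Cxcl2 and Dio2, and the median in place of the mean gave 64. Without the 6 genes that rest on ΔTAD replicate 1, also in the totals, 61 met the rule, 22 higher in knock-out and 39 higher in ΔTAD. Of these 61, 59 belonged to the set and 2 were new, while Cxcl2 and Dio2 dropped out. The replicate block gave 34 lower and 16 higher calls in knock-out and 22 and 33 in ΔTAD, as without it. Whether same-numbered libraries share more than a number is not given in the sources used here. No called gene changed its sign under any alternative. Levels at or under 3 counts, 0.143 to 0.186 CPM, cannot be told from absence at this depth.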

Other observations

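Some neighbours of the switched genes were low in both edited genotypes and only less so in ΔTAD. They were chosen after their values were seen. Distances here run from gene start to gene start. At 158 kb from Cd84, a SLAM-family receptor, lies Cd48, which encodes a ligand in the same family. Cd48 stood at 6.52 CPM for wild-type, 0.116 for knock-out and 0.411 for ΔTAD macrophages. Ly9, another SLAM-family gene there, was unlike it, with 40 CPM in wild-type, 40.5 in knock-out and a log2 difference of -1.46 for knock-out minus ΔTAD. The secreted phospholipase gene Pla2g5, 549 kb from Kif17, stood at 178, 11.2 and 28.4 CPM. The septin gene Sept3, 530 kb from Zc3h7b, stood at 13.1 CPM for wild-type, 0 for knock-out and 0.390 for ΔTAD.

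Other neighbours belong to genes that were higher in knock-out. Acod1, the itaconate-producing enzyme of activated macrophages, lies 70 kb from Kctd12. It stood at 9.01, 13.6 and 4.13 CPM in wild-type, knock-out and ΔTAD. C5ar1, the receptor of complement fragment C5a, lies 300 kb from Ehd2 and stood at 33.1, 9.43 and 3.17 CPM. The zinc finger genes Zfp65, Zfp58 and Zfp456 lie near Zfp748. Their knock-out means of 9.07, 2.00 and 1.78 CPM exceeded their ΔTAD means of 2.69, 0.111 and 0.413 CPM.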
